A study of Homo sapiens with 8 samples.

Results

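Interferon-stimulated genes are the genes that a cell switches on when it senses an interferon, and 53 of them were followed here in the SW480 and DLD-1 colorectal cancer (CRC) cell lines. The 53 were taken by symbol from a list, with no threshold on a measured value. The list was chosen with earlier results of these data known. Each was found among the 17309 genes of the count table and each passed the filter on low counts, so 53 of 53 were among the 13619 genes tested. RNA-seq was performed on 8 libraries, 2 for each of 4 groups: SW480 cells given shControl virus, SW480 cells given shNAT10 virus, and DLD-1 cells given either virus. The study used these cells to ask what NAT10, an RNA acetyltransferase that places N4-acetylcytidine on transcripts, controls in CRC. The labels call the shControl cells WT and the shNAT10 cells NAT10 knockdown, and both had been infected with a hairpin lentivirus, so that uninfected cells were not analysed here. The study describes its lentiviral constructs as a means to make stable lines. Which NAT10 hairpin was sequenced is not given in the labels, and each line stands for 1 tumour. The libraries were labelled as biological replicates without saying what separated them, so the p-values below measure the spread between these libraries.

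Type I interferons such as interferon beta bind the IFNAR1/IFNAR2 receptor, and type III interferons, the interferon lambdas, bind IFNLR1 paired with IL10RB. Both receptors activate Janus kinases, which phosphorylate STAT2, and STAT2 acts with IRF9 in the complex ISGF3. ISGF3 binds the interferon-stimulated response element (ISRE) near the start of its target genes, many of which encode proteins that bind viral RNA, degrade RNA, block membrane fusion or attach the ubiquitin-like protein ISG15 to other proteins. STAT2, IRF7 and IRF9 are themselves interferon-induced. Epithelial cells, including those of the colon, respond to type III as well as type I interferon.

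The libraries held 15147805 to 17271336 estimated counts. Levels are given below as CPM, which are TMM-normalized counts scaled to a common library total. NAT10 was 122 CPM in each SW480 shControl library against 23.6 and 27.9 in the shNAT10 libraries (log2 fold change -2.25, SE 0.0869, adjusted p = 3.74e-09). In DLD-1 it was 121 and 120.5 CPM against 59 and 54.4 (log2 fold change -1.09, SE 0.0812, adjusted p = 2.73e-05), so that the hairpin libraries matched their labels and the remaining NAT10 was higher in DLD-1. The epithelial marker EPCAM was read at 131 to 656 CPM in every library, but the intestinal keratin KRT20 was at 1 to 4 counts in the SW480 libraries. T-cell, fibroblast and endothelial markers (CD3E, COL1A2, DCN, PDGFRA, LUM, PECAM1, CDH5 and KDR) were at most 3 counts in any library, while ITGAM, CD14, COL1A1 and VWF were at most 2.29 CPM and CD68, a macrophage marker that other cells also express, was 17.3 to 30.7 CPM. Of the markers, PTPRC and CDX1 were not analysed here.

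The program was much lower in SW480 than in DLD-1 before any knockdown. Of the 53 members, 50 were lower in SW480 shControl than in DLD-1 shControl at an adjusted p under 0.05, where 35.6% of all genes tested were called lower, and 2 (BST2 and IFI16) were higher, where 38.1% of all genes were called higher. GBP2 was not called. IFI44L, XAF1 and TRIM22 passed the filter on low counts only through DLD-1, and IFI16 only through SW480. A call for IFI44L, XAF1 or TRIM22 could therefore only be lower, and for IFI16 only higher. The median log2 fold change over the members was -3.47, an 11.1-fold lower level, against 0.01 over all genes tested. The members took up 1.54% ± 0.0095 (SD, n = 2) of all counts in DLD-1 shControl and 0.21% ± 0.0013 (SD, n = 2) in SW480 shControl. Each line is 1 cell line with its own culture and library history, and in bulk RNA fewer expressing cells and less RNA per cell cannot be told apart.

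**Figure D1:**
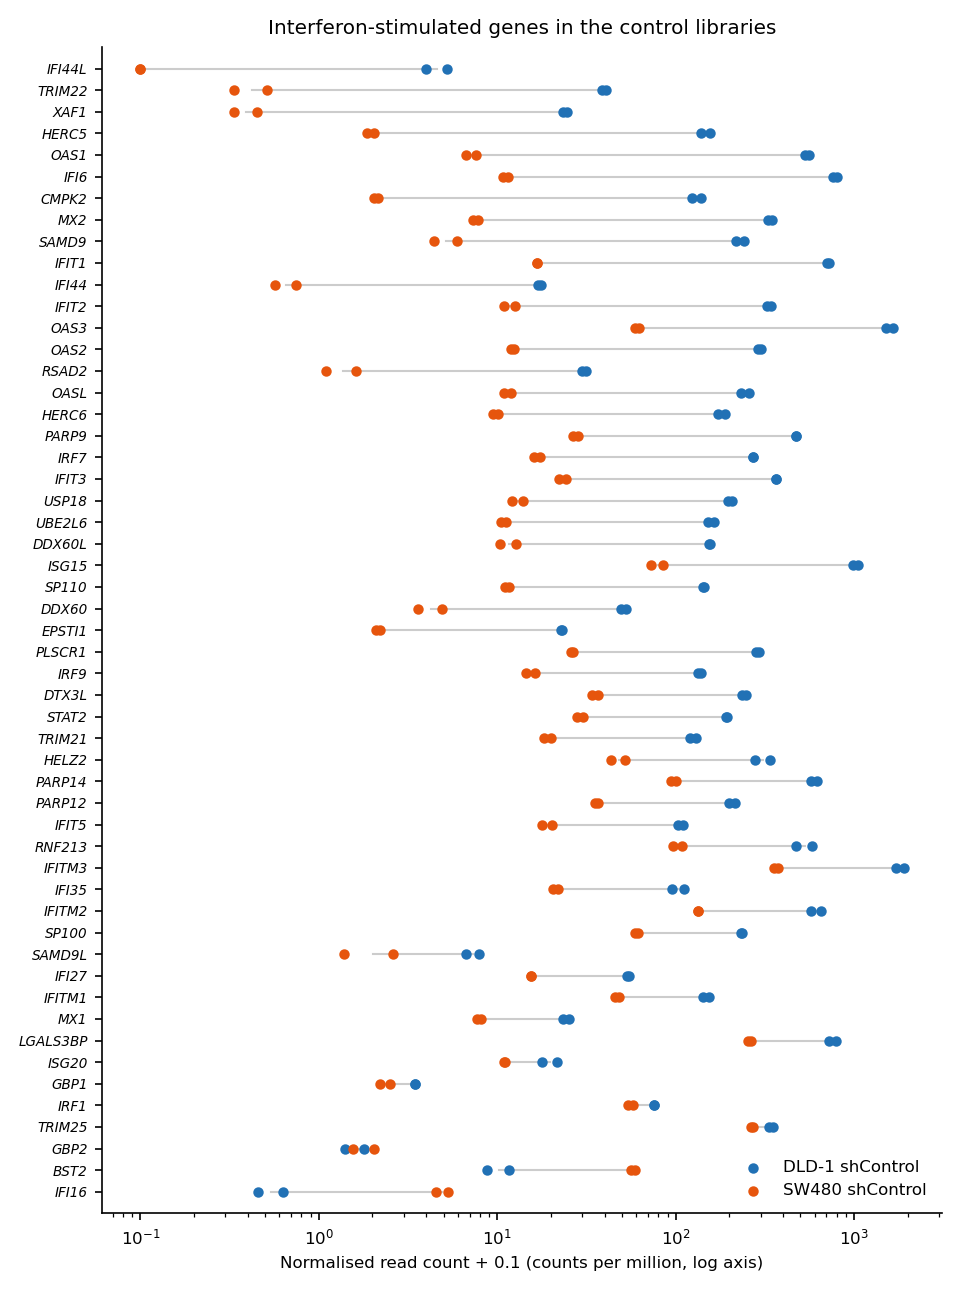
Level of each of the 53 interferon-stimulated genes in the 4 shControl libraries, as CPM + 0.1 on a log axis, with the genes ordered by the log2 fold change between SW480 and DLD-1. Points are single libraries, and the SW480 points lie below the DLD-1 points for 50 called genes, above them for BST2 and IFI16, and among them for GBP2.

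Promoter sequence was looked at because members of the list are known through the ISRE. RefSeq windows of 300 bases on GRCh38.p14, from 250 bases before to 50 after the annotated start, were matched for 44 of the 53 members. The ISRE core, spelled GAAANNGAAA and searched on both strands, was found in 26 of the 44 (59.1%) and in 1255 of all 35116 promoter windows (3.57%). The gamma-activated site, TTCNNNGAA, whose letters can overlap an ISRE, was found in 11 of the 44 (25%) and in 7.66% of all windows, and 7 members held both. In 24 of the 26 members the ISRE match nearest the start lay upstream of it and within 150 bases, with a median position of -55.5 over the 26. The median log2 fold change between the lines was -3.11 for the 26 members with a match and -2.94 for the 18 without. A match is only a run of letters and shows no binding. The windows below are shown because they belong to members that differed between the lines with the smallest p. Each is the part around the match nearest the start, written 5′ to 3′ on the strand of the gene, and capitals mark the ISRE core, which appears as its reverse complement where it lies on the other strand.
IFIT1, chr10:89392492-89392544, plus strand: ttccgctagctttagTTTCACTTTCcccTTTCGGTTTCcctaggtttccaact
IFI6, chr1:27672261-27672322, minus strand: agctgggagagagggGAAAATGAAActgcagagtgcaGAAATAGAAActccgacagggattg
OAS3, chr12:112938447-112938486, plus strand: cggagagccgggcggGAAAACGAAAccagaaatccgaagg
IFIT3, chr10:89327826-89327899, plus strand: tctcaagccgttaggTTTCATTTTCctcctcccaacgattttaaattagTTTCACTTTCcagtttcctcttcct
PLSCR1, chr3:146544662-146544701, minus strand: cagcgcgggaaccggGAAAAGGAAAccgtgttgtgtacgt
HERC5, chr4:88456979-88457069, plus strand: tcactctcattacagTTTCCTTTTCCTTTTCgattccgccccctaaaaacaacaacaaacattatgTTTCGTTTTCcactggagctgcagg
The IFIT1, IFI6 and IFIT3 windows each hold 2 matches and the HERC5 window holds 3, of which an overlapping pair stands at its left. OAS1, PARP9 and CMPK2, which are in the same group by p, held no match within their windows.

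The IFIT proteins bind viral RNA through tetratricopeptide repeats. IFIT1, which recognises RNA whose cap lacks methylation, was 721 and 707 CPM in DLD-1 shControl and 16.6 and 16.7 CPM in SW480 shControl. It was 42.9-fold lower in SW480 (log2 fold change -5.42, SE 0.0773, adjusted p = 6.3e-16), with the smallest p of the 53 members. IFIT2 was 323 and 341 against 12.5 and 10.8 CPM, a 28.4-fold lower level (SE 0.0842 on the log2 scale, adjusted p = 3.16e-15). IFIT3, which stabilises IFIT1, was 366 and 364 against 24.3 and 22.1 CPM, a 15.7-fold lower level (adjusted p = 5e-15). The libraries of the lines were far apart for each of these genes. IFIT5 was 5.64-fold lower, so that 4 of 4 measured IFIT genes were lower in SW480.

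The oligoadenylate synthetases make 2′-5′ oligoadenylate on double-stranded RNA, which activates RNase L. OAS1 was 562 and 531 CPM in DLD-1 against 6.56 and 7.55 CPM in SW480 (77.3-fold lower, log2 fold change -6.27, SE 0.0912, adjusted p = 6.3e-16). OAS2 was 299.9 and 289 against 12.3 and 11.8 CPM, 24.4-fold lower (adjusted p = 6.76e-15). OAS3 was 1511 and 1644 against 59.4 and 62.1 CPM, 26-fold lower (adjusted p = 3.16e-15). OASL, a relative without synthetase activity, was 21.6-fold lower, and ISG20, a 3′-5′ exonuclease, was 1.81-fold lower. Thus 5 of 5 genes of this group were lower, with ISG20 the least. Of the helicases and SAMD9 proteins, 5 of 5 were lower in SW480: the antiviral SAMD9 44.9-fold, its relative SAMD9L 3.77-fold, DDX60 12.2-fold, DDX60L 13.5-fold and HELZ2 6.45-fold.

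Among the GTPases, MX2, which blocks nuclear entry of HIV-1, was 347 and 328 CPM in DLD-1 and 7.68 and 7.26 CPM in SW480 (45.2-fold lower, SE 0.0929 on the log2 scale, adjusted p = 2.43e-15). Its relative MX1 was at a low level even in DLD-1, at 25.1 and 23.3 against 7.62 and 7.96 CPM, 3.1-fold lower. GBP1, a guanylate-binding protein induced most by interferon gamma, was 3.35 and 3.37 against 2.4 and 2.11 CPM (1.49-fold lower, adjusted p = 0.0259). The call for GBP1 was lost, leaving 49 lower members, by DESeq2 and when either DLD-1 shControl library or either SW480 shControl library was left out. GBP2 was 1.7 and 1.3 against 1.47 and 1.93 CPM, and these overlapped (log2 fold change 0.18, 95% interval -0.48 to 0.83).

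The membrane proteins did not move as a single block. PLSCR1, a phospholipid scramblase, was 292 and 280.2 CPM in DLD-1 against 25.9 and 26.6 in SW480 (10.9-fold lower, SE 0.0705 on the log2 scale, adjusted p = 1.27e-14). The IFITM proteins, which block fusion of viral and cell membranes, were lower by less: IFITM1 3.17-fold, IFITM2 4.61-fold and IFITM3 4.95-fold. BST2 (tetherin), which holds budding virus at the cell surface, ran the other way at 11.6 and 8.7 CPM in DLD-1 against 59.4 and 56.3 CPM in SW480 (5.71-fold higher, log2 fold change 2.51, SE 0.133, adjusted p = 3.33e-10). IFI16, a nuclear DNA sensor, was 0.528 and 0.355 CPM in DLD-1 against 4.45 and 5.21 in SW480 (10.8-fold higher, log2 fold change 3.43, SE 0.299, adjusted p = 9.4e-08). Its level was low in both lines. The nuclear body proteins SP100 and SP110 were 3.89-fold and 12.7-fold lower in SW480.

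ISG15 is attached to target proteins by the conjugating enzyme UBE2L6 and the ligase HERC5, and is removed by USP18. HERC5 was 155 and 138 CPM in DLD-1 against 1.93 and 1.76 CPM in SW480 (79.1-fold lower, log2 fold change -6.30, SE 0.129, adjusted p = 1.27e-14). ISG15 itself was 1048 and 981 against 85.2 and 72.9 CPM, 12.8-fold lower. With UBE2L6 (14.7-fold), HERC6 (18.7-fold) and USP18 (15.7-fold), 5 of 5 genes of the system were lower in SW480. Of the nucleotide-modifying enzymes, CMPK2, a mitochondrial nucleotide kinase, was 138 and 123 against 1.93 and 2.05 CPM (65.2-fold lower, SE 0.119 on the log2 scale, adjusted p = 1.01e-14). Its neighbour RSAD2 (viperin), which makes a chain-terminating nucleotide, was 24.1-fold lower.

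The ubiquitin ligases ranged more widely. TRIM22 was 40.5 and 38.5 CPM in DLD-1 and 0.234 and 0.41 CPM in SW480 (4 and 7 counts), 120-fold lower with an SE of 0.199 on the log2 scale. TRIM25, which ubiquitinates the RNA sensor RIG-I, was 334 and 351 against 264 and 270.1 CPM, 1.28-fold lower, the smallest called difference of the 53. TRIM21 was 6.58-fold and RNF213 5.14-fold lower. PARP9 and its partner DTX3L act together on histones, and PARP9 was 471 and 469.7 CPM against 26.4 and 28.1 (17.3-fold lower, SE 0.0725 on the log2 scale, adjusted p = 3.25e-15). DTX3L was 6.84-fold, PARP12 5.78-fold and PARP14 6.14-fold lower, 4 of 4 in this group.

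The transcription factors on the list were lower in 4 of 4 cases. STAT2 was 193 and 192 CPM in DLD-1 against 28.1 and 30 CPM in SW480, 6.62-fold lower, and its partner IRF9 was 8.94-fold lower. IRF7, which drives interferon alpha genes, was 16.3-fold lower, whereas IRF1, which interferon gamma and other stimuli induce, was 75.2 and 75.4 against 57.4 and 54.1 CPM and 1.35-fold lower. The other interferon-induced proteins were lower in 8 of 8 cases. IFI6, a mitochondrial and endoplasmic reticulum protein, was 804 and 759 against 11.4 and 10.7 CPM (70.9-fold lower, log2 fold change -6.15, SE 0.0992, adjusted p = 1.65e-15). IFI44L was 5.11 and 3.91 CPM in DLD-1 and had 0 counts in each of the 4 SW480 libraries. With 3 counts per library allowed for these zeros it was at least 25.65-fold lower. IFI44 (30.6-fold), XAF1 (79.9-fold), EPSTI1 (11.1-fold), IFI27 (3.52-fold), IFI35 (4.89-fold) and LGALS3BP (2.92-fold) made up the rest.

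Levels of different genes were compared on the FPKM scale, which divides by transcript length. The highest 5 members in DLD-1 shControl were IFITM3 at 5236 ± 486.5 FPKM, ISG15 at 2738 ± 172.9, IFI6 at 1426 ± 69.6, IFITM2 at 1327 ± 141.1 and LGALS3BP at 391 ± 25.4 (SD, n = 2 each). The spreads of IFI6 and IFITM2 overlapped, as did those of LGALS3BP and the next genes, OAS1 at 381 ± 14.3 FPKM and IFITM1 at 368 ± 28.1 FPKM. In SW480 shControl the highest 5 were IFITM3 at 1100 ± 45.7 FPKM, IFITM2 at 296.9 ± 0.396, ISG15 at 221.5 ± 24.7, LGALS3BP at 136 ± 2.85 and IFITM1 at 120.3 ± 4.69. IFI6, among the highest in DLD-1, was at 20.6 ± 0.933 FPKM in SW480. The lowest were IFI16 at 0.19 FPKM in DLD-1 and IFI44L, listed at 0, in SW480.

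Genes of the wider pathway differed in the same comparison. Of 48 pathway genes outside the list, 31 could be tested, and 18 (58.1%) were lower and 7 (22.6%) higher in SW480, against 35.6% and 38.1% of all genes. Among the lower, IFNB1, IFNL1, IFNL2 and IFNL3 passed the filter on low counts only through DLD-1. A call for them could only be lower, so the 58.1% includes outcomes set in advance. The ligands were read in DLD-1 and hardly at all in SW480. IFNB1, the gene of interferon beta, was 8.28 and 8.58 CPM in DLD-1 shControl and had 0 counts in the 4 SW480 libraries, which makes it at least 47.98-fold lower. For the interferon lambda genes, IFNL1 was 39.1 and 36.6 CPM in DLD-1 shControl and had 0 and 3 counts in the SW480 shControl libraries. IFNL2 was 29.6 and 31.9 CPM and IFNL3 was 14.5 and 13.3 CPM in DLD-1 shControl, with 0 counts in SW480, which makes them at least 174.8-fold and 78.83-fold lower. IFNL2 and IFNL3 are near-identical copies, and reads may have been divided between them. IFNA1, IFNA21 and IFNK had at most 2 counts in any library and IFNE at most 6. The other interferon alpha genes, IFNW1 and IFNG were not analysed here.

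The receptors did not follow the ligands. In SW480 shControl, IFNAR1 was 1.34-fold, IFNAR2 1.61-fold, IL10RB 1.71-fold and IFNGR2 2.18-fold higher than in DLD-1 shControl (adjusted p = 0.000104 for IFNAR1 and smaller for the others). IFNAR1, for example, was 119 CPM in each SW480 library against 83.8 and 93.8 CPM in DLD-1. IFNLR1, the type III receptor chain, was 11.8 and 10.8 against 19.4 and 19.2 CPM, 1.7-fold lower, and IFNGR1 was 2.56-fold lower. TLR3, an endosomal sensor of double-stranded RNA, was 9.55-fold lower, and UBA7, which activates ISG15, was 4.49-fold lower.

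**Figure D2:**
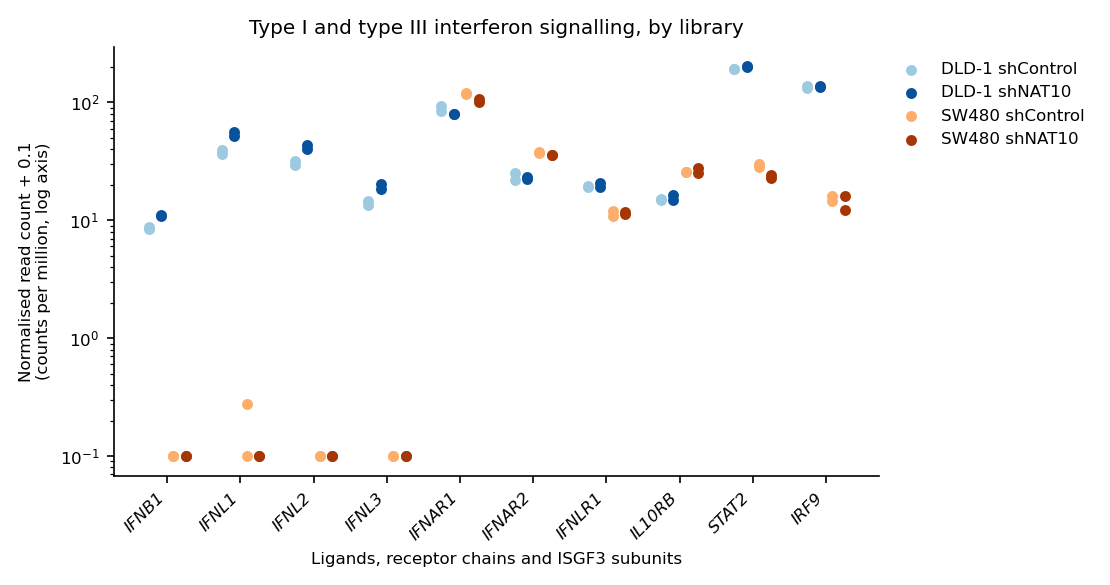
Level of interferon ligands, receptors, STAT2 and IRF9 in each of the 8 libraries, as CPM + 0.1 on a log axis, with points for single libraries coloured by group. IFNB1, IFNL2 and IFNL3 sit at 0 in SW480 and between 8.28 and 43.3 CPM in DLD-1, whereas IFNAR1, IFNAR2 and IL10RB are higher in SW480.

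The members were slightly higher in DLD-1 shNAT10 than in DLD-1 shControl, at sizes that did not pass the adjusted test. In either line the groups hold no rescue and no other labelled NAT10 hairpin. An effect of the hairpin virus therefore cannot be told apart from loss of NAT10. By edgeR 0 members were called higher (0% of all genes tested) and 0 lower (0.0147% of all genes). At an unadjusted p under 0.05, 22 members were higher, where 3.03% of all genes were, and 0 were lower, where 2.94% were. The study's limits (fold above 1.2 or below 0.83 with an unadjusted p under 0.05) were passed by 14 members upward and 0 downward, against 1.34% of all genes in each direction. By sign alone, 51 of 53 members were higher in shNAT10, against 49.5% of all genes; the exceptions were MX1 and IRF9. Both shNAT10 libraries lay above both shControl libraries for 39 members (17.7% of all genes) and below them for 0 (18.2%). The members were read in the same libraries and can move together, so these counts are not counts of independent observations. The median log2 fold change of the members was 0.16 against 0 over all genes tested, and their share of counts was 1.73% ± 0.037 (SD, n = 2) against 1.54%. In other fits the number of members called higher was 8 by DESeq2 (0.117% of all genes), 9 with the DLD-1 libraries fitted alone (0.2%), and 0 by limma-trend on log2(FPKM + 1) (0%). It was 7 when the first or the second SW480 shNAT10 library was left out of the shared estimate of spread (0.145% and 0.123% of all genes) and 0 when any of the other libraries was. Log2 fold changes in DLD-1 correlated with transcript GC content over 13491 genes (Spearman's rho 0.210), and after a correction for GC content 8 members were called higher (0.141% of all genes).

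The 14 members past these limits came from 8 of the 12 roles. OAS2 was 299.9 and 289 CPM in DLD-1 shControl and 411 and 384 in shNAT10 (1.35-fold, log2 fold change 0.43, SE 0.0677, unadjusted p = 1.56e-05 and adjusted p = 0.0599 by edgeR). OASL was 257 and 232 against 326 and 296 CPM (1.27-fold, adjusted p = 0.21), and ISG20 was 21.5 and 17.8 against 25.6 and 22.9 CPM (1.23-fold, adjusted p = 0.833). OAS1, which shares the role, was 562 and 531 against 594 and 591 CPM and missed the limits. TRIM22 was 40.5 and 38.5 against 57.8 and 60 CPM (1.49-fold, log2 fold change 0.57, SE 0.0925, adjusted p = 0.0599). IFIT2 was 323 and 341 against 426 and 431 CPM (1.29-fold, adjusted p = 0.0929), and IFIT3 was 366 and 364 against 445 and 454 CPM (1.23-fold, adjusted p = 0.155). In each of these genes the lower shNAT10 library was above the higher shControl library.

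BST2 had the largest fold of the members in DLD-1, with 11.6 and 8.7 CPM in shControl and 18.8 and 15.4 CPM in shNAT10 (1.69-fold, log2 fold change 0.76, SE 0.149, adjusted p = 0.155). IFITM1 was 154 and 141 against 202 and 190.3 CPM (1.33-fold, adjusted p = 0.174), while IFITM2 was 656 and 574 against 659 and 645 CPM and IFITM3 was 1899 and 1709 against 2006 and 1926 CPM. UBE2L6 was 165 and 152 against 204 and 191 CPM (1.25-fold, adjusted p = 0.21). ISG15, which that enzyme conjugates, was 1048 and 981 against 1210 and 1055 CPM and did not pass the limits. RSAD2 was 29.9 and 31.2 against 39.8 and 39.1 CPM (1.29-fold, adjusted p = 0.472). GBP1 was 3.35 and 3.37 against 5.12 and 4.2 CPM (1.39-fold, adjusted p = 0.807).

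Of the other induced proteins, IFI27 was 54.6 and 53.6 CPM in shControl against 74.7 and 64.6 in shNAT10 (1.29-fold, adjusted p = 0.286). The apoptosis-linked protein XAF1 was 23.4 and 24.6 against 30.9 and 32.4 CPM (1.32-fold, adjusted p = 0.541), and IFI44 was 17.6 and 16.9 against 21.2 and 23.9 CPM (1.31-fold, adjusted p = 0.541). The helicases and SAMD9 proteins, the PARP and DTX3L group, the transcription factors and the nuclear body proteins had 0 members past the limits. STAT2 was 193 and 192 against 198 and 202 CPM and IRF9 was 139 and 134 against 134 and 137 CPM. Among the members with the highest FPKM in DLD-1, the largest fold was 1.14 (LGALS3BP).

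**Figure D3:**
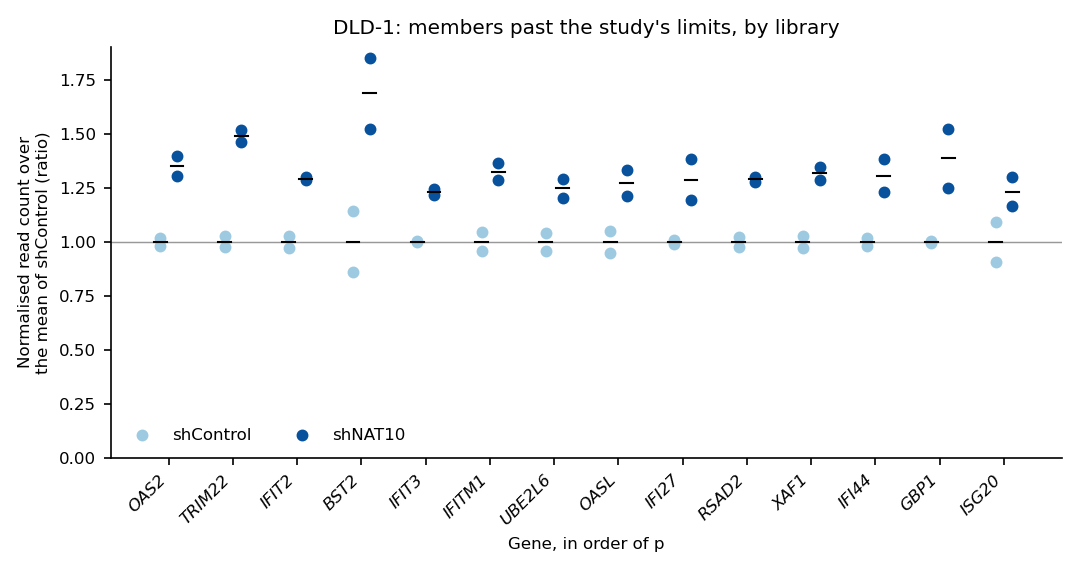
Each DLD-1 library's CPM divided by the mean of the shControl libraries, for the 14 members past the study's limits, with points for libraries and bars for group means. Both shNAT10 points lie above both shControl points in each gene, with means from 1.23 to 1.69 times the shControl level.

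The interferon ligands were also higher in both DLD-1 shNAT10 libraries, again without an adjusted call. IFNL1 was 39.1 and 36.6 CPM in shControl and 55.8 and 51.7 in shNAT10 (1.42-fold, log2 fold change 0.51, SE 0.105, adjusted p = 0.173). IFNL2 was 29.6 and 31.9 against 40.2 and 43.3 CPM (1.36-fold, adjusted p = 0.211), IFNL3 was 14.5 and 13.3 against 18.1 and 20 CPM (1.38-fold, adjusted p = 0.449), and IFNB1 was 8.28 and 8.58 against 11.1 and 10.8 CPM (1.29-fold, adjusted p = 0.788). Of the 31 pathway genes tested, edgeR called 0. At an unadjusted p under 0.05, 6 were higher and 1 lower, against 3.03% and 2.94% of all genes, and DESeq2 called IFNL1 higher and no other.

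In SW480, where most members had far lower levels, MX2 and GBP1 were called on knockdown. By edgeR these 2 members fell (0.903% of all genes were called lower), and 0 members rose (0.778% of all genes). At an unadjusted p under 0.05, 9 members were lower, against 10.6% of all genes, and 3 were higher, against 8.69%. The study's limits were passed downward by 6 members, against 4.98% of all genes, and upward by 1, IFI6, against 4.1%. The groups did not overlap for 15 members with lower values (26.2% of all genes) and 7 with higher values (21.7%). Of the 53 members, these counts were 17% lower and 5.66% higher at the unadjusted p, 11.3% and 1.89% past the limits, and 28.3% and 13.2% without overlap. The members' median log2 fold change was -0.08 against -0.01 over all genes, and their share of counts was 0.207% ± 0.0106 (SD, n = 2) in shNAT10.

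MX2 was 7.68 and 7.26 CPM in SW480 shControl and 5.06 and 3.98 in shNAT10 (log2 fold change -0.72, SE 0.136, adjusted p = 0.0187). GBP1 was 2.4 and 2.11 against 0.882 and 0.877 CPM (log2 fold change -1.35, SE 0.281, adjusted p = 0.0305), which is 41 and 36 counts against 15 in each shNAT10 library. Both were low genes in this line, and the calls were not stable: 0 members were called lower without either SW480 shControl library, without either DLD-1 shNAT10 library, with the SW480 libraries fitted alone, or with a filter of 1 count. MX2 alone was called without the first DLD-1 shControl or the first SW480 shNAT10 library, and GBP1 alone by limma-trend. For MX2, limma-trend had only the first SW480 shNAT10 library, since the FPKM value of the second was missing, while GBP1 had both. DESeq2 called MX2 and PARP14 lower and gave GBP1 no adjusted p. Without the second SW480 shNAT10 library 6 members were called lower (MX2, GBP1, STAT2, PARP14, RNF213 and TRIM25) and 4 higher (IFITM1, IFITM2, IFITM3 and ISG15), where 8.18% of all genes were called lower and 7.46% higher.

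The other members past the limits in SW480 missed the adjusted threshold. STAT2 was 28.1 and 30 CPM in shControl and 22.9 and 24.1 in shNAT10 (log2 fold change -0.30, SE 0.0794, adjusted p = 0.0736). PARP14, an ADP-ribosyltransferase, was 93.8 and 99.8 against 67.8 and 84.5 CPM (log2 fold change -0.35, SE 0.0909, adjusted p = 0.0761), and RNF213, a very large ubiquitin ligase, was 97.1 and 108 against 65.2 and 86.8 CPM (log2 fold change -0.43, SE 0.12, adjusted p = 0.087). SAMD9L was 1.29 and 2.52 against 0.882 and 0.936 CPM (log2 fold change -1.06, SE 0.346, adjusted p = 0.132). The shNAT10 libraries were below the shControl libraries for each of the 4, and the first shNAT10 library was the lower for each. IFI6 was 11.4 and 10.7 against 14.4 and 12.1 CPM (1.2-fold, adjusted p = 0.229). Log2 fold changes in SW480 correlated with GC content over the same 13491 genes (Spearman's rho 0.378), and after the GC correction 3 members, MX2, GBP1 and STAT2, were called lower (1.26% of all genes).

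Most members that differed strongly between the lines did not pass the test on knockdown in SW480, MX2 being an exception. IFIT1 was 16.6 and 16.7 CPM in shControl and 18.2 and 19.4 in shNAT10 (log2 fold change 0.18, 95% interval -0.01 to 0.36), OAS1 was 6.56 and 7.55 against 7.59 and 6.9 CPM (0.04, 95% interval -0.22 to 0.30), and HERC5 was 1.93 and 1.76 against 2.06 and 1.4 CPM (-0.09, 95% interval -0.61 to 0.42). IFNB1, IFNL2 and IFNL3 had 0 counts with either hairpin. Of the 31 pathway genes edgeR and DESeq2 called 0 on knockdown in SW480; at an unadjusted p under 0.05, 7 were lower and 0 higher, against 10.6% and 8.69% of all genes.

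**Figure D4:**
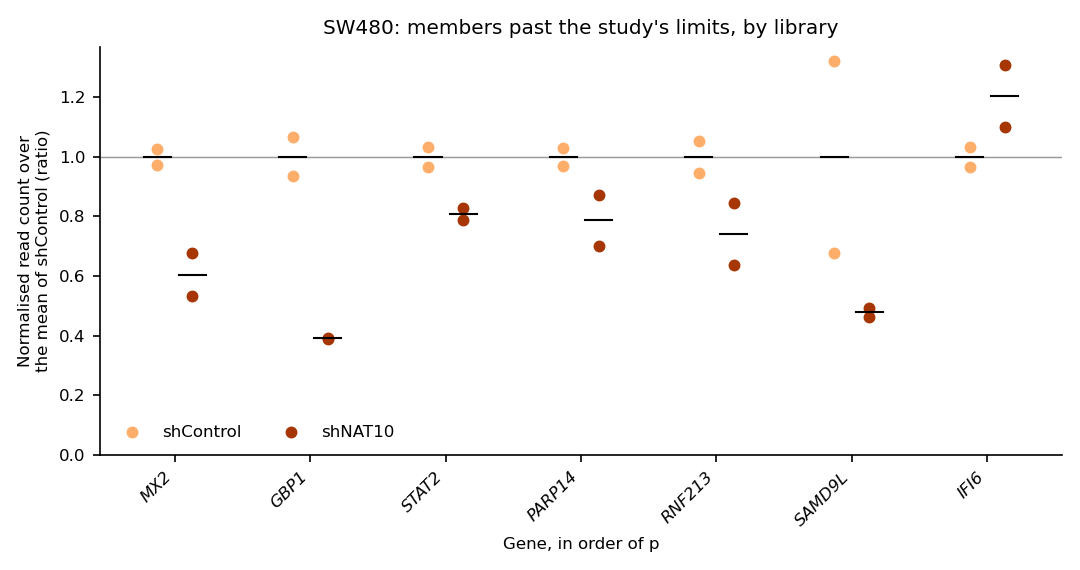
Each SW480 library's CPM divided by the mean of the shControl libraries, for the 7 members past the study's limits, with points for libraries and bars for group means. The shNAT10 points lie below the shControl points for MX2, GBP1, STAT2, PARP14, RNF213 and SAMD9L and above them for IFI6.

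The knockdown effects of the lines were then compared with each other, each against the same shControl libraries that entered the comparison between the lines. By edgeR the difference, SW480 minus DLD-1, was called for 0 members in the higher direction (0% of all genes tested) and 0 in the lower (0.00734%). At an unadjusted p under 0.05 the difference was negative for 23 members, against 4.88% of all genes, and positive for 0, against 4.5%. The median difference was -0.22 log2 units against -0.01 over all genes tested. DESeq2 called 1 member (MX2; 0.0587% of all genes), limma-trend 0, and edgeR without the second SW480 shNAT10 library 5 (GBP1, MX2, OAS2, PARP14 and RNF213; 1.23% of all genes). For 12 of the 53 members (22.6%) both SW480 shNAT10 libraries were below both shControl libraries while both DLD-1 shNAT10 libraries were above theirs, against 3.14% of all genes. In SW480 alone the share of members separating lower was near the 26.2% of all genes. In DLD-1 alone most members separated higher, against 17.7% of all genes, so the 22.6% mostly restates the separation in DLD-1. MX2 had a difference of -0.89 (SE 0.152, adjusted p = 0.163), with 347 and 328 CPM against 382 and 375 in DLD-1 and a fall in SW480.

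**Figure D5:**
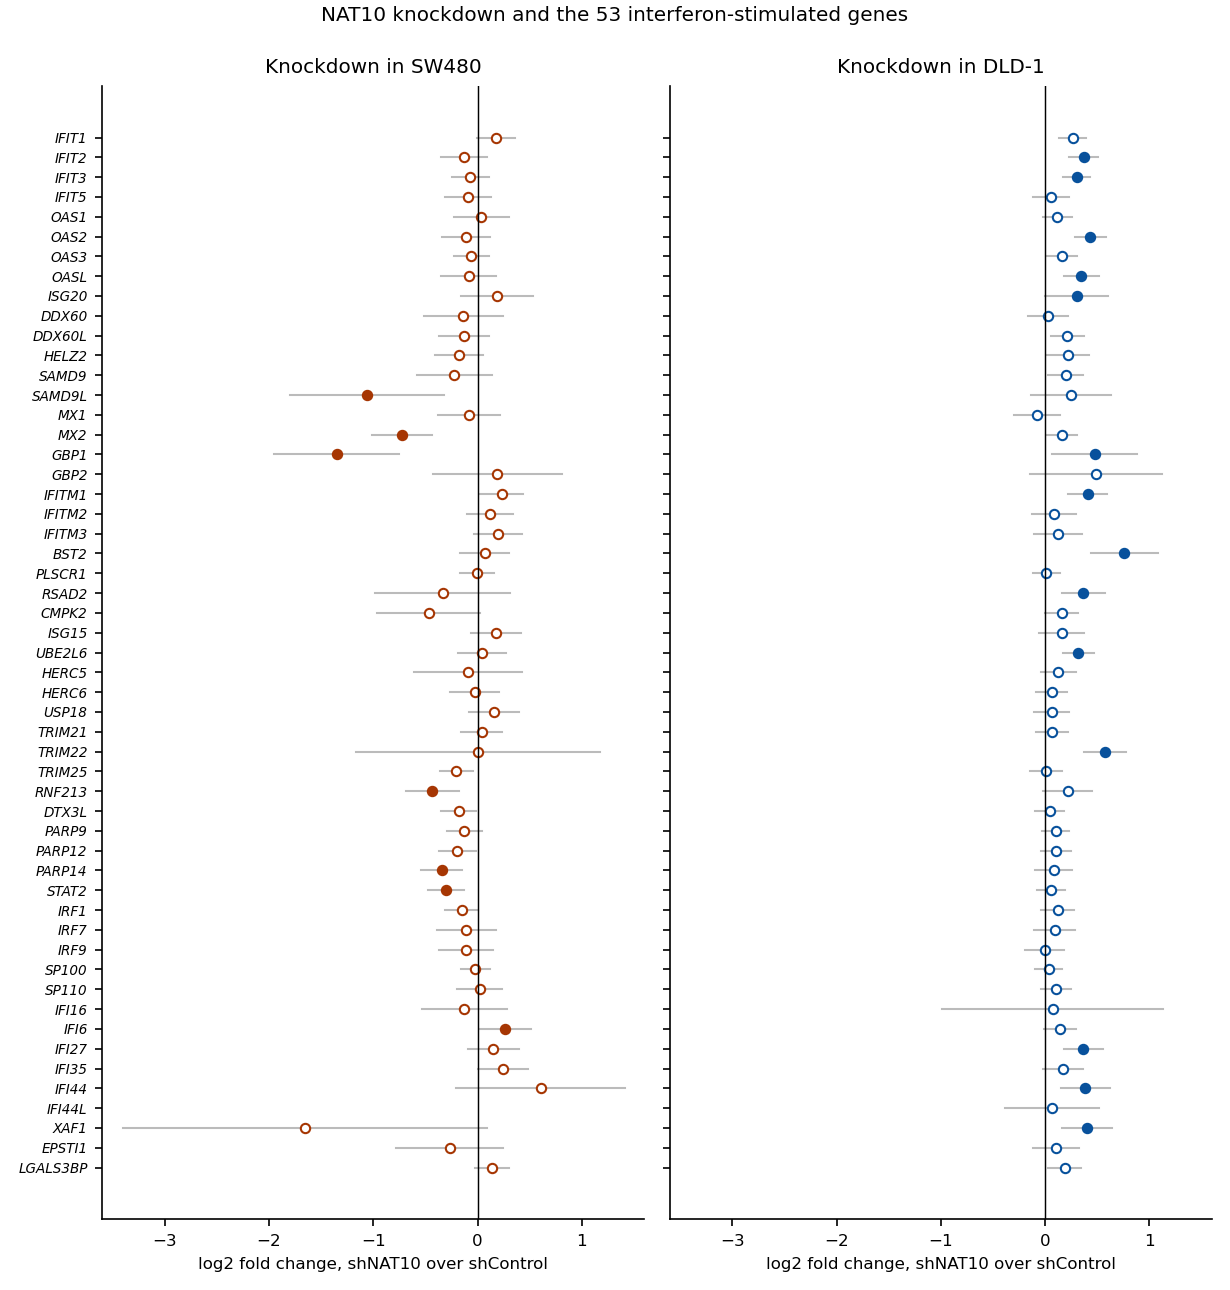
Log2 fold change of each member on NAT10 knockdown, in SW480 and in DLD-1, with bars for the 95% interval and filled points for members past the study's limits. In DLD-1, 51 points lie above 0 with a median of 0.16, and in SW480 the points lie on both sides of 0 with a median of -0.08; IFI44L, with 0 counts, is not drawn for SW480.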

How the data were processed

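RNA-seq of 8 libraries, 2 for each of 4 groups, was used, and groups came from the labelled line and virus. Poly(A) libraries were sequenced by BGI as single-end reads without stated strand selection. The authors deposited estimated counts per RefSeq transcript, not normalized, for the whole series, and FPKM values per transcript for each library. The submitters' processing notes name HISAT2 2.0.4, Bowtie2 2.2.5, RSEM 1.2.12 and hg38 without saying which made which file. The table's columns of the authors' own comparisons were not used.

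Counts were summed per Entrez gene and rounded (17309 genes, 15147805 to 17271336 counts per library). Totals of 42 members were within 0.05 of a whole number in every library. For the other 11 (IFITM2, IFITM3, MX1, IRF1, STAT2, USP18, XAF1, PARP9, DTX3L, PARP14 and SP100) reads shared with other genes had been divided, which makes their levels less certain. Counts without strand cannot separate a gene from an antisense partner. Genes were filtered with filterByExpr (minimum count 10, minimum total 15), scaled by TMM. A single model of the 4 groups, with no term for the replicate number, was fitted in edgeR 4.0.16 (R 4.3.3). The quasi-likelihood F test gave p-values, adjusted by Benjamini-Hochberg over 13619 genes and called at an adjusted p under 0.05. The study's own limits on fold and unadjusted p were applied beside them. FPKM per gene, the sum of its transcripts, served to compare levels between genes and for limma 3.58.1 with a pseudocount. The FPKM values of SW480 shNAT10 replicate 2 stop part of the way: 14655 transcripts and 25 members had none there, and the limma fits left that library out for those genes.

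The 53 members, their roles, the pathway genes and the markers were chosen with earlier results of these data known. Values in every library were given for up to 12 members per contrast with an adjusted p under 0.05, smallest p first, for up to 12 per line past the study's limits, for the 5 highest by shControl FPKM in each line, and for ligands and up to 10 pathway genes; members with under 3 counts in every library were to be named, and 0 met this. Values of some pathway and marker genes are not reported here. Other members were named with values where they share a role with these. Alternatives were DESeq2 1.42.0, upper-quartile scaling, other filters, limma-trend with 2 pseudocounts (1 and 0.1), each contrast's groups alone, a replicate block, and each library left out in turn. Corrections for transcript length and GC content (loess, span 0.5) were added after seeing the data. Promoter windows came from RefSeq (GRCh38.p14) and were read with Python 3.11.15. The fit was tested on simulated data.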

Additional observations from a re-analysis of the deposited data

Results flagged for a closer look

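For 12 of the 53 members (22.6%) the libraries of the groups separated in opposite directions, lower on knockdown in SW480 and higher in DLD-1. This held for 3.14% of all genes. Most members separated higher in DLD-1, against 17.7% of all genes, while their share separating lower in SW480 was near the 26.2% of all genes. The 22.6% therefore mostly restates the separation in DLD-1. The difference of the log2 fold changes (SW480 minus DLD-1) had an unadjusted p under 0.05 in edgeR for each of the 12. The 12 were picked by that separation in the same libraries, so these p-values add no separate support. The adjusted p was between 0.163 and 0.497, so that 0 passed the adjusted threshold. Within the lines, only MX2 and GBP1 had an unadjusted p under 0.05 by edgeR in both. In DLD-1 that p was 0.404 for STAT2 and 0.34 for PARP14, and in SW480 0.228 for IFIT2. The differences were -0.89 for MX2, -1.83 for GBP1, -0.50 for IFIT2, -0.65 for RNF213, -0.36 for STAT2, -0.43 for PARP14, -1.31 for SAMD9L, -0.40 for HELZ2, -0.63 for CMPK2, -0.27 for IRF1, -2.05 for XAF1 and -0.23 for PARP9. XAF1 rests on 4 and 6 counts in SW480 shControl against 3 and 0 in shNAT10. SAMD9L, GBP1 and CMPK2 were under 3 CPM in each SW480 library.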

How the results depend on the processing

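The comparison of SW480 with DLD-1 kept 2 members higher and 49 or 50 lower in every alternative. Its median log2 fold change was -2.60 by limma-trend on log2(FPKM + 1), -3.65 with the length correction and -3.61 with the GC correction, the largest moves of a range from -3.65 to -2.60. Of all genes tested, 35.6% were called lower in the reported fit, 49.8% with the length correction and 49.1% with the GC correction. The share called higher was 38.1%, 28.7% and 30.8% in the same order. With a filter of 1 count, 27.8% were called lower and 30.8% higher. In DLD-1 the knockdown median ran from 0.11 to 0.19, in SW480 from -0.08 to -0.01, and for the difference from -0.28 to -0.19.

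Members called higher in DLD-1 numbered 0 in the reported fit (0% of all genes) and 8 by DESeq2 (0.117%). They numbered 9 with the contrast's groups alone (0.2%), 2 with the length correction (0.0222%) and 8 with the GC correction (0.141%). Members called lower in SW480 numbered 2 in the reported fit (0.903% of all genes). They numbered 1 by limma-trend with pseudocount 1 (0.184%) or 0.1 (0.147%). With a filter of 1 count (0.122%) and with the groups alone (0.0988%) they numbered 0. Past the study's limits upward in SW480 there was 1 in the reported fit, where 4.1% of all genes were. There were 3 and 4 by limma-trend with pseudocounts 1 and 0.1, 0 with the groups alone and 0 with the length correction. The share of all genes past the limits was not counted for these alternatives, so their counts cannot be set against it. For the difference of effects the count of lower calls was 0, against 1 by DESeq2 and 0 to 5 with a library left out. The causes were not tested. Fits with a library left out entered the ranges of the medians above. There the lone library of its group was assumed to vary like the other groups.

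Same-numbered libraries deviated together with correlations from -0.0041 to 0.106, so the numbers were not taken to pair samples. With a replicate block, 11 members were called higher in DLD-1 (0.264% of all genes), and 7 lower and 1 higher in SW480 (6.76% and 5.39%). For the difference 8 were called lower (0.749%). With the block within each line these counts were 10, 7, 1 and 6, against 0.242%, 6.04%, 4.77% and 0.367% of all genes. Among single-gene results under the alternatives, 535 kept their side of the threshold and their direction, 71 gained a call, 16 lost one and 0 reversed. DESeq2 gave no adjusted p for 9 members in SW480 and 11 in DLD-1.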
